A study of Mus musculus with 12 samples.

Results

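Messenger RNA of 10 genes of MHC class I antigen presentation was examined in cultured regulatory T cells (Tregs) of NOD mice, a strain that develops autoimmune diabetes. The genes, B2m, H2-K1, H2-D1, H2-T23, H2-Q7, Tap1, Tap2, Tapbp, Nlrc5 and Erap1, were picked by gene symbol for their place in the pathway, and the rule uses no measured value. All 10 were present among the 55228 gene symbols measured and among the 15043 genes tested, a gene being tested where its TPM, a length-corrected share of the transcripts in a library, averaged 1 or more. RNA had been sequenced from 12 libraries, 3 in each of 4 groups. The cells of all groups were Foxp3-GFP+CD25+ Tregs from the lymph nodes of 16 pooled NOD.Foxp3-GFP mice, sorted in 3 parts on separate machines, activated and transduced with a retrovirus on day 2. The methods give the donors of Tregs in the study as 7 to 14 wk of age. Cells of the EV no IL-2 and EV+IL-2 groups carried the empty vector (EV) with its Thy1.1 reporter. 1G12t and 3A10t cells carried the same vector with an orthogonal IL-2, the variant 1G12 or 3A10, tethered to the orthogonal IL-2 receptor β chain. EV no IL-2, 1G12t and 3A10t cells were washed on day 4 to remove IL-2 and grown for 5 more days, whereas EV+IL-2 cells stayed in medium with 100 IU/ml IL-2, the concentration given in the methods. By the methods, the EV+IL-2 cells were split from the EV-transduced culture, and the main test did not pair both EV groups. Thy1.1+ cells of all groups were sorted on day 9. The 3 libraries of a group therefore stand for 3 cultures of 1 pool of mice, so that p-values measure the spread between these cultures and not between animals. The questions addressed were which class I genes differ when IL-2 is present, and where cells with a tethered construct stand between both EV groups.

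MHC class I molecules show peptides from inside the cell to CD8 T cells and natural killer cells, and nearly all nucleated cells, Tregs included, carry them. Peptides cut by the proteasome are carried into the endoplasmic reticulum by the TAP transporter, trimmed there by ERAP1, and loaded onto a heavy chain that is paired with the light chain β2-microglobulin, with tapasin holding the empty molecule at the transporter. Many genes of the pathway share promoter elements (an X and Y box bound by the complex that recruits NLRC5, a κB site and an interferon-stimulated response element) and are known to respond to interferons.

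Promoter sequence was available for 8 of the 10 genes, in 9 promoters, from RefSeq on GRCm38.p6, the C57BL/6J reference. The promoters of B2m, H2-K1 and H2-Q7 are shown because they carry the same pair of motifs and the bases printed lie outside annotated exons. These genes were called higher with IL-2 below, as was H2-D1. H2-D1 also carries the pair, but its searched bases begin within an annotated exon and are not shown. Capitals mark letters searched on both strands: TGACG (as in the X2 part of the X box), ATTGG or its complement CCAAT (Y box), GGGNNTTCC (κB-like) and GAAANNGAA (as in interferon-stimulated response elements). Only these spellings were searched. Elements spelled otherwise stay in lower case, so that lower case is no sign that a κB site or an interferon-stimulated response element is absent. Each sequence runs 5′ to 3′ on the strand of the gene and ends at the base before the annotated start of the gene.
B2m, chr2:122147437-122147685, plus strand: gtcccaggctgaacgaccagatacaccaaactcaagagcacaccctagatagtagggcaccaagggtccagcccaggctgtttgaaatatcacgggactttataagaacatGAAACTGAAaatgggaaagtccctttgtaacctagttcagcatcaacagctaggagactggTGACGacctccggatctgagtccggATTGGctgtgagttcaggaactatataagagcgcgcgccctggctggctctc
H2-K1, chr17:34000348-34000597, minus strand: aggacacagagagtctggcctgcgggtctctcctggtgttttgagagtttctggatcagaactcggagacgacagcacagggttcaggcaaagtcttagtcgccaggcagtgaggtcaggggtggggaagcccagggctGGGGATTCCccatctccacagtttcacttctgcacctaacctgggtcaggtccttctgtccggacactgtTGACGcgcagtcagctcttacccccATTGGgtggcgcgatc
H2-Q7, chr17:35438905-35439154, plus strand: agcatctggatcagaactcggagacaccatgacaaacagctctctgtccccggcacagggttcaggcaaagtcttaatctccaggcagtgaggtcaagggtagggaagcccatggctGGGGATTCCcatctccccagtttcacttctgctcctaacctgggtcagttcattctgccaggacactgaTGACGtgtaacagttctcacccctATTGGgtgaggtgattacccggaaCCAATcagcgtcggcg

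In B2m, TGACG began at −78 and ATTGG at −53 from the RefSeq start. In one of the 2 H2-K1 promoters the pair began at −41 and −16, in H2-Q7 at −64 and −40, and in H2-D1, which is not shown, at −101 and −76. The pair, TGACG followed by ATTGG within 40 bases on the strand of the gene, was thus present in 4 members, or 5 of 9 promoters, against 156 (0.475%) of all 32851 mouse promoters of the same 250 bases. The 2 H2-K1 promoters overlap, and H2-K1, H2-D1 and H2-Q7 are similar genes, so that their matches are not separate from each other. Tap1, also called with IL-2, lacked the pair, as did Erap1, Tapbp and H2-T23. The searched bases of Erap1, Tapbp and H2-D1 lay inside the gene as annotated in GENCODE M21, and those of H2-T23 in part. For Erap1, Tapbp and H2-T23, bases further upstream were not searched, so the pair could lie there. GGGNNTTCC was found in 4 of the 9 promoters and 4.98% of all, GAAANNGAA in 3 and 7.13%, TGACG alone in 6 and 17.8%, and ATTGG in 8 and 33.8%. No marked motif overlaps another in the sequences shown. The matches describe the letters of a reference strain, and the counts miss elements spelled otherwise. Binding was not measured, and NOD promoters were not used here.

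The values are scaled TPM, which are divided by transcript length and can be compared between genes. TPM keep no record of depth, which is unknown. Scaling factors lay between 0.854 and 1.09, with the lowest in 3A10t replicate 2, where the 10 most abundant genes held 13.5% of the TPM against 8.85% in the lowest library. The 4 heavy chains belong to a family of similar genes, so that reads can be split between copies. In GENCODE M21 transcripts, 26.4% of the 50-base windows of H2-Q7 occur in other genes, 13.6% of those of H2-T23, 12.8% of H2-D1 and 9.63% of H2-K1, against at most 2.87% for the other 6 members. NOD mice carry another H2-K1 allele than the reference strain, and how this moved its level was not tested. All 5 of the Treg genes Foxp3, Ctla4, Ikzf2, Cd4 and Cd3e lay at 131 scaled TPM or more in every library. Foxp3 was lower in every 3A10t library (369 to 463) than in EV no IL-2 (490 to 501), but no listed Treg gene passed the adjusted threshold there. The IL-2 receptor gene Il2ra rose from 412 ± 19.2 to 699.7 ± 40.9 scaled TPM with IL-2 (log2 fold change 0.76, limma adjusted p = 1.23e-03). Among markers of other cells, the B cell genes Cd79a and Ms4a1 were at 2.22 scaled TPM or less, Cd79b at 6.75 to 13.3 and Cd74 at 3.73 to 13.98. Of the CD8 T cell genes, Cd8a was at 0.773 or less and Cd8b1 at 3.11 to 5.74. The NK cell genes Ncr1 and Klrb1c were at 0.343 or less, and the myeloid genes Lyz2, S100a8, S100a9 and Csf1r at 1.73 or less. Cst3, the fifth myeloid gene listed, lay between 439.6 and 762.5. The summed B cell list was at 15.5 to 17.9 scaled TPM in EV no IL-2 cells, 14.5 to 17.4 in EV+IL-2 cells, 14.2 to 26.9 in 1G12t and 20.9 to 27.2 in 3A10t. Both EV groups overlapped, and all 3A10t libraries lay above them. The part of these markers in the results on 3A10t was not tested.

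With IL-2, 7 of the 10 class I genes rose against EV no IL-2, 0 fell and 3 did not pass the test (limma, Benjamini-Hochberg adjusted p under 0.05 over all genes tested). Of all genes tested, 8.17% were called higher and 5.13% lower in this comparison. Tap2, a TAP subunit, rose 2.04-fold, Nlrc5, the transactivator of class I genes, 1.94-fold, the non-classical heavy chain H2-Q7 1.83-fold and Tap1, the other TAP subunit, 1.69-fold. H2-K1, H2-D1 and B2m, which are by far the most abundant of the 10, rose 1.49-, 1.29- and 1.25-fold. The median log2 fold change of the members was 0.48, against −0.01 over all genes tested. In 9 of the 10 genes all 3 EV+IL-2 libraries lay above all 3 EV no IL-2 libraries, which held for 19.6% of all genes. In bulk RNA, fewer cells of a kind and less RNA per cell cannot be told apart, here and in each result below.

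**Figure D1:**
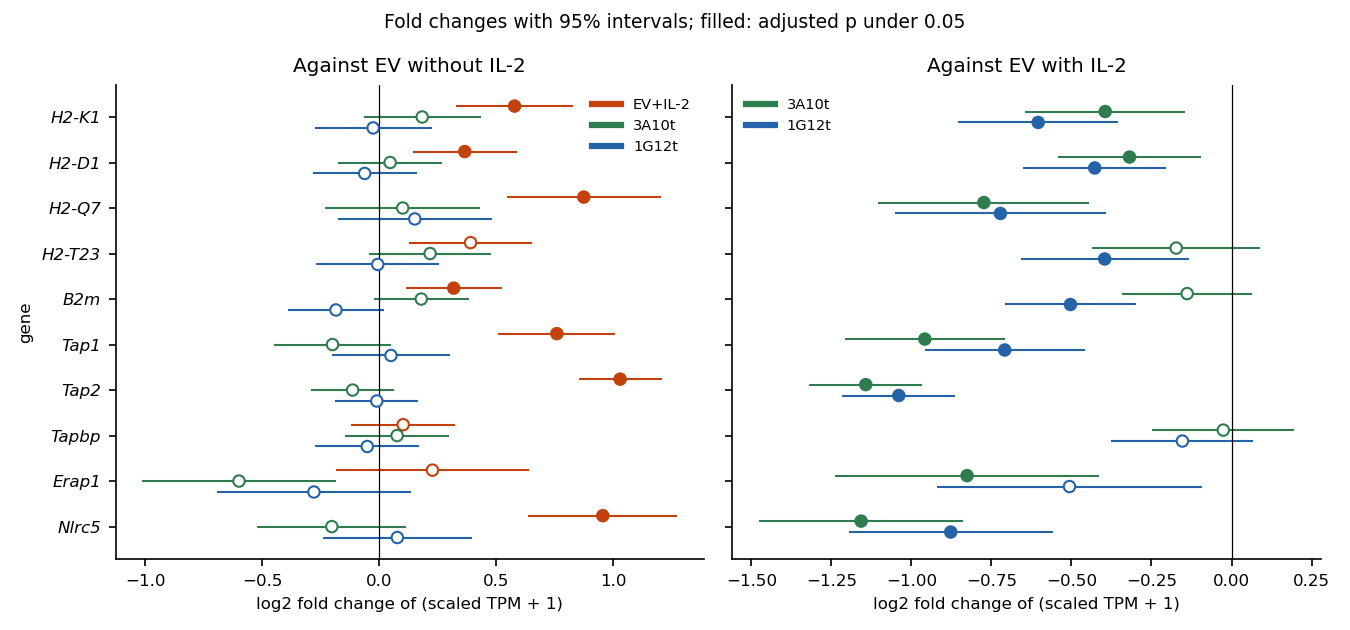
Log2 fold changes of the 10 class I genes on the log2(scaled TPM + 1) scale, against EV no IL-2 (left) and against EV+IL-2 (right). Points are limma estimates, lines their 95% confidence intervals, colours the group compared, and filled points have an adjusted p under 0.05. With IL-2, 7 genes were called higher; against EV no IL-2 no point of 3A10t or 1G12t is filled, and against EV+IL-2 7 genes of 3A10t and 8 of 1G12t were called lower.

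Of the heavy chains, H2-K1 and H2-D1 encode the classical molecules K and D. H2-K1 (chr17:33996017-34000347, minus strand) was measured at 2646, 2834 and 2557 scaled TPM in replicates 1, 2 and 3 of EV no IL-2 and at 4034, 4080.1 and 3873 in EV+IL-2 cells. It was at 2708, 2425 and 2764 in 1G12t and at 2575, 3706 and 2942 in 3A10t. All EV+IL-2 libraries lay above the other 9, and the 3A10t libraries ranged from within the EV no IL-2 values to well above them. The log2 fold change with IL-2 was 0.58 ± 0.113 (SE) (limma adjusted p = 6.38e-03).

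H2-D1 (chr17:35262730-35267499, plus strand) was at 4906, 5330.0 and 4759 scaled TPM in EV no IL-2 cells and at 6561, 7005 and 5782 in EV+IL-2 cells. In 1G12t it was at 5029.6, 4610.1 and 4711 and in 3A10t at 4661, 6004 and 4895. EV+IL-2 and EV no IL-2 did not overlap, but 3A10t replicate 2 lay above EV+IL-2 replicate 3. With IL-2 it rose by 0.36 ± 0.101 (SE) on the log2 scale (adjusted p = 0.0362). The call was lost without any 1 of 7 libraries, EV no IL-2 replicates 1, 2 and 3, EV+IL-2 replicates 1 and 2 and 1G12t replicates 1 and 2, with adjusted p from 0.0503 to 0.135.

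H2-Q7 and H2-T23 encode non-classical chains, Qa-2 and Qa-1. H2-Q7 (chr17:35439155-35443773, plus strand) was at 140.2, 163 and 141 scaled TPM in EV no IL-2 cells, 262, 279.5 and 273 in EV+IL-2 cells, 151, 141 and 207 in 1G12t and 139, 189 and 152 in 3A10t. No library of another group reached those of EV+IL-2, and the log2 fold change with IL-2 was 0.87 ± 0.149 (SE) (adjusted p = 2.92e-03). H2-T23 (chr17:36029773-36032855, minus strand) was at 66.4, 73.0 and 67.2 in EV no IL-2 cells, 96.5, 89.1 and 86.1 in EV+IL-2 cells, 68.2, 62.6 and 75.2 in 1G12t and 68.0, 95.3 and 79.4 in 3A10t. All EV+IL-2 libraries lay above EV no IL-2, yet H2-T23 narrowly missed the threshold at a log2 fold change of 0.39 ± 0.119 (SE) (adjusted p = 0.0547). It passed without 3A10t replicate 1 or 2 in the fit (adjusted p = 0.0200 and 0.0128). H2-T23 lies wholly within A930015D03Rik on the opposite strand, and the kit does not mark strand, so that reads of both cannot be told apart.

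B2m (chr2:122147686-122153083, plus strand), the light chain of every class I molecule, was at 5062, 5529 and 4688 scaled TPM in EV no IL-2 cells and at 6428, 6412 and 6165 in EV+IL-2 cells. It was at 4769.6, 4631 and 4040.5 in 1G12t and at 5309, 6500.0 and 5519 in 3A10t. All EV+IL-2 libraries lay above EV no IL-2 and above 1G12t, 1 library of 3A10t lay above them, and all 3A10t libraries lay above 1G12t. With IL-2 B2m rose by 0.32 ± 0.0924 (SE) on the log2 scale (adjusted p = 0.0452). This call, the weakest of the 7, was lost without any 1 of EV no IL-2 replicates 1 and 3, EV+IL-2 replicates 1, 2 and 3, 1G12t replicates 1 and 2 and 3A10t replicate 3, with adjusted p from 0.0566 to 0.176. B2m lies wholly within Patl2, annotated on the opposite strand.

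**Figure D2:**
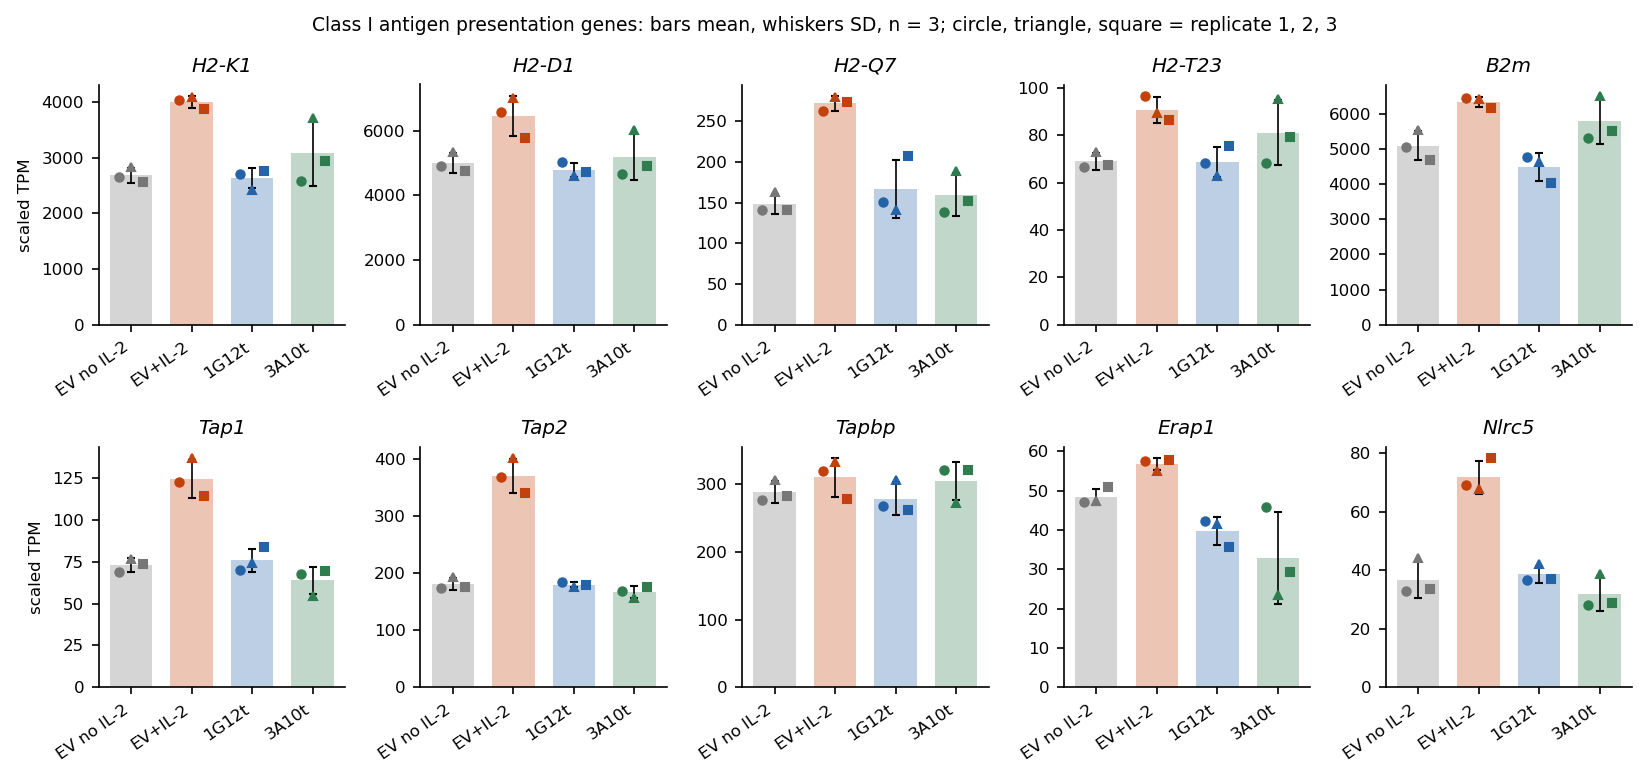
Level of each class I gene in scaled TPM (linear axis from 0) in the 12 libraries. Bars are group means, whiskers SD of 3 libraries, and the circle, triangle and square are replicates 1, 2 and 3. The EV+IL-2 libraries stand above all others in H2-K1, H2-Q7, Tap1, Tap2, Erap1 and Nlrc5, whereas those of Tapbp overlap in all groups.

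Tap1 and Tap2 form the peptide transporter and lie next to each other on chromosome 17, with the immunoproteasome genes Psmb9 and Psmb8 beside and between them. Tap1 (chr17:34187553-34197225, plus strand) was at 68.8, 76.9 and 73.5 scaled TPM in EV no IL-2 cells and 123, 137 and 114 in EV+IL-2 cells, against 69.9, 74.0 and 83.6 in 1G12t and 67.8, 54.3 and 69.3 in 3A10t. Tap2 (chr17:34203527-34216321, plus strand) was at 174, 193 and 177 in EV no IL-2 cells and 369, 402 and 342 in EV+IL-2 cells, against 185, 176 and 179 in 1G12t and 168, 157 and 177 in 3A10t. In both genes the lowest EV+IL-2 library lay far above the highest of the other 9. With IL-2 Tap1 rose by 0.76 ± 0.113 (SE) (adjusted p = 1.26e-03) and Tap2 by 1.03 ± 0.0802 (SE) (adjusted p = 1.61e-05) on the log2 scale, and both kept the call in all 23 alternatives. Tap1 shares 212 bases with Psmb9, which lies on the opposite strand. Tap2 overlaps Gm15821 by 3148 bases and Gm20496 by 1923, both annotated on the opposite strand. Reads from these stretches cannot be told apart.

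Tapbp, the gene of tapasin (chr17:33915899-33929292, plus strand), showed another pattern. Its levels were 277, 306 and 282 scaled TPM in EV no IL-2 cells, 319.6, 333 and 278 in EV+IL-2 cells, 267, 307 and 262 in 1G12t and 321, 272 and 322 in 3A10t. The 4 groups overlapped. The log2 fold change with IL-2 was 0.10, with a 95% confidence interval from −0.12 to 0.32 (adjusted p = 0.608), an interval that lies wholly below that of Tap2, from 0.85 to 1.21. Tapbp overlaps Zbtb22 on the same strand by 3422 bases and Gm19412 on the opposite strand by 1207.

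Erap1 (chr13:74639568-74693201, plus strand), the peptidase that trims peptides in the endoplasmic reticulum, was at 47.1, 47.3 and 50.9 scaled TPM in EV no IL-2 cells and 57.4, 55.1 and 57.8 in EV+IL-2 cells. It was at 42.3, 41.4 and 35.7 in 1G12t and at 45.9, 23.4 and 29.3 in 3A10t. All 3 EV+IL-2 libraries lay above EV no IL-2, all 3 1G12t and all 3 3A10t libraries below it, and the 3A10t libraries were spread more widely than those of the other groups. Of all genes, 7.80% had every 1G12t library below EV no IL-2, and 12.1% every 3A10t library. With IL-2 the log2 fold change was 0.23 ± 0.187 (SE) (adjusted p = 0.523), which did not pass the threshold. Nlrc5 (chr8:94434356-94527272, plus strand) was at 32.8, 44.0 and 33.6 scaled TPM in EV no IL-2 cells, 69.1, 67.7 and 78.2 in EV+IL-2 cells, 36.8, 41.9 and 36.9 in 1G12t and 27.9, 38.8 and 28.9 in 3A10t. It was the least abundant of the 10 in EV no IL-2, no library of another group reached those of EV+IL-2, and with IL-2 it rose by 0.95 ± 0.144 (SE) on the log2 scale (adjusted p = 1.36e-03). On the opposite strand, Erap1 overlaps Cast by 834 bases and Nlrc5 overlaps 9330175E14Rik by 748. Nlrc5 also overlaps Mir7072 on the same strand by 60 bases.

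Since reads of near-identical heavy chains cannot be assigned with certainty, they were also summed over 18 genes, the 4 members with H2-Q, H2-T and H2-M genes. The sum was 8277 ± 480.0 (SD, n = 3) scaled TPM in EV no IL-2 cells, 11391 ± 751 (SD, n = 3) in EV+IL-2 cells, 8027 ± 400.3 (SD, n = 3) in 1G12t and 8916 ± 1419 (SD, n = 3) in 3A10t, and the EV+IL-2 libraries lay above all others. The mean of EV+IL-2 was 1.38 times that of EV no IL-2, that of 3A10t 1.08 times and that of 1G12t 0.97 times. With TPM as deposited the direction of 3A10t turned, at 0.97 times, and that of 1G12t was at 1.00 times. Over all genes tested, that scaling moves the median of 3A10t against EV no IL-2 from 0.03 to −0.09 on the log2 scale. H2-K1 and H2-D1 made up 91.3% to 93.0% of the sum in every library. The ratio of H2-D1 to H2-K1 was 1.87 ± 0.0137 (SD, n = 3) in EV no IL-2 cells, 1.61 ± 0.113 in EV+IL-2 cells, 1.82 ± 0.103 in 1G12t and 1.70 ± 0.0995 in 3A10t, and its values in EV+IL-2 (1.49 to 1.72) lay below those in EV no IL-2 (1.85 to 1.88). B2m per summed heavy chain was 0.615 ± 0.0180 in EV no IL-2 cells, 0.557 ± 0.0255 in EV+IL-2 cells, 0.559 ± 0.0600 in 1G12t and 0.651 ± 0.0319 in 3A10t. It was lower in all EV+IL-2 libraries than in EV no IL-2, and 3A10t overlapped EV no IL-2. These sums and ratios are given without a test.

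**Figure D3:**
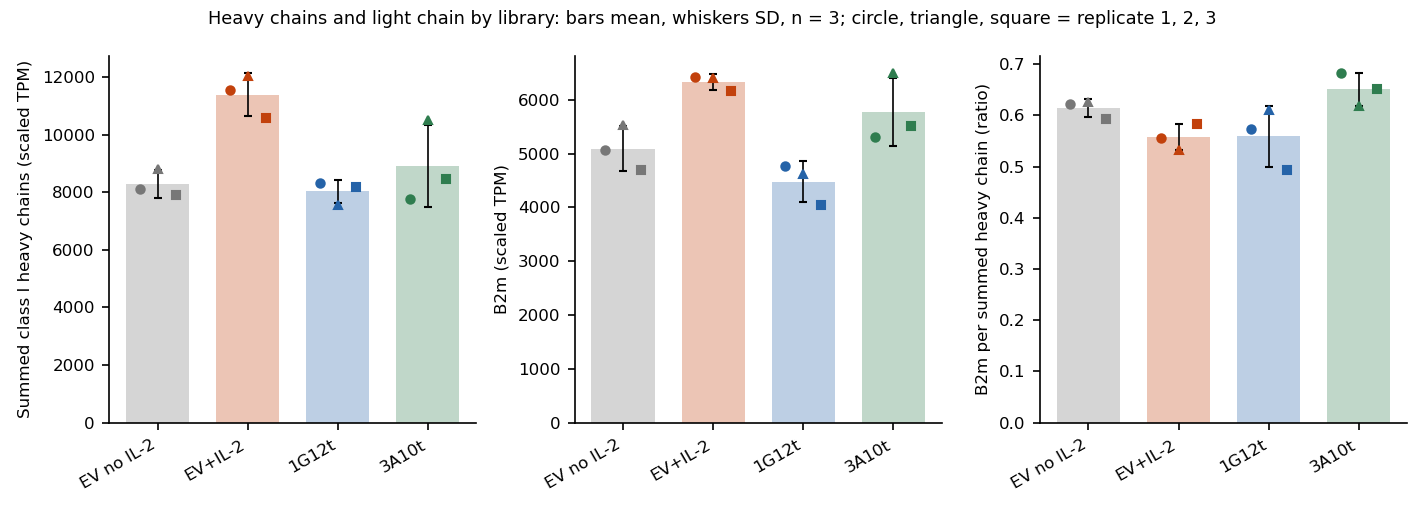
Summed class I heavy chains and B2m in scaled TPM, and B2m per summed heavy chain as a ratio, by library. Bars are group means, whiskers SD of 3 libraries, symbols replicates 1, 2 and 3. The heavy chain sum is highest in the 3 EV+IL-2 libraries, with 3A10t replicate 2 next, and B2m per heavy chain is lower in EV+IL-2 than in EV no IL-2.

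Without IL-2, no class I gene was called in Tregs with a tethered construct. Against EV no IL-2, 0 of 10 class I genes passed the adjusted threshold in 3A10t and 0 of 10 in 1G12t (limma, all 12 libraries in the fit). At an unadjusted p under 0.05 there was 1 gene, Erap1, in 3A10t and 0 in 1G12t, against 26.0% and 7.04% of all genes. Over all genes tested, 0.452% were called higher and 1.60% lower in 3A10t, and 0.0133% higher and 0.00665% lower in 1G12t. The intervals show how far a difference could reach. For Tap2 the log2 fold change was −0.11 in 3A10t with a 95% interval from −0.29 to 0.06, and −0.01 in 1G12t with an interval from −0.19 to 0.17. For Nlrc5 it was −0.20 in 3A10t, from −0.52 to 0.12, and for Tap1 −0.20, from −0.45 to 0.05. Each of these intervals ends below that of EV+IL-2 in the same gene. B2m and H2-Q7 in 1G12t gave −0.19 ± 0.0924 (SE) and 0.15 ± 0.149 (SE), neither past the threshold (adjusted p = 0.719 and 0.820).

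Erap1 had the lowest value of the members in both constructs, a log2 fold change of −0.60 ± 0.187 (SE) in 3A10t (adjusted p = 0.101) and −0.28 ± 0.187 (SE) in 1G12t (adjusted p = 0.748). The study's methods set a threshold of p under 0.01, unadjusted, with an absolute log2 fold change above 0.25. There, Erap1 alone of the 10 was called in 3A10t, as lower, where 6.67% of all genes were, and 0 in 1G12t. At that threshold 8 members were higher in EV+IL-2, with H2-T23 added, where 8.99% of all genes were. Without 3A10t replicate 1, Erap1 passed the adjusted threshold as lower (log2 fold change −0.86, adjusted p = 5.54e-04) and H2-T23 as higher (0.34, adjusted p = 0.0465). The value of H2-T23 with all libraries was 0.22 ± 0.119 (SE) (adjusted p = 0.262). The share of all genes called without 3A10t replicate 1 is not given here.

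The 3A10t libraries also differed from the others along transcript length, as judged from the median difference from the EV no IL-2 mean in genes above 0 in every library. In the shortest 25% of these genes, with transcripts up to 1640 bases, the median was 0.39 in 3A10t replicate 2, 0.14 in replicate 3 and 0.06 in replicate 1 on the log2 scale. In the longest 25%, from 4398 bases, it was −0.21, −0.10 and −0.04. In the other 9 libraries these medians lay between −0.07 and 0.07 for short and between −0.07 and 0.11 for long transcripts. Erap1 has a transcript of 5644 bases, Nlrc5 of 7578, Tap1 of 3911 and B2m of 860. The lowest 3A10t values of Erap1, Tap1, Tap2 and Tapbp and the highest of B2m, H2-K1, H2-D1, H2-Q7, H2-T23 and Nlrc5 were all in replicate 2. With a correction for length, chosen after the data were seen, Erap1 in 3A10t moved from −0.60 to −0.44 and Tap2 from −0.11 to 0.01. The part of transcript length in these differences was not tested further.

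**Figure D4:**
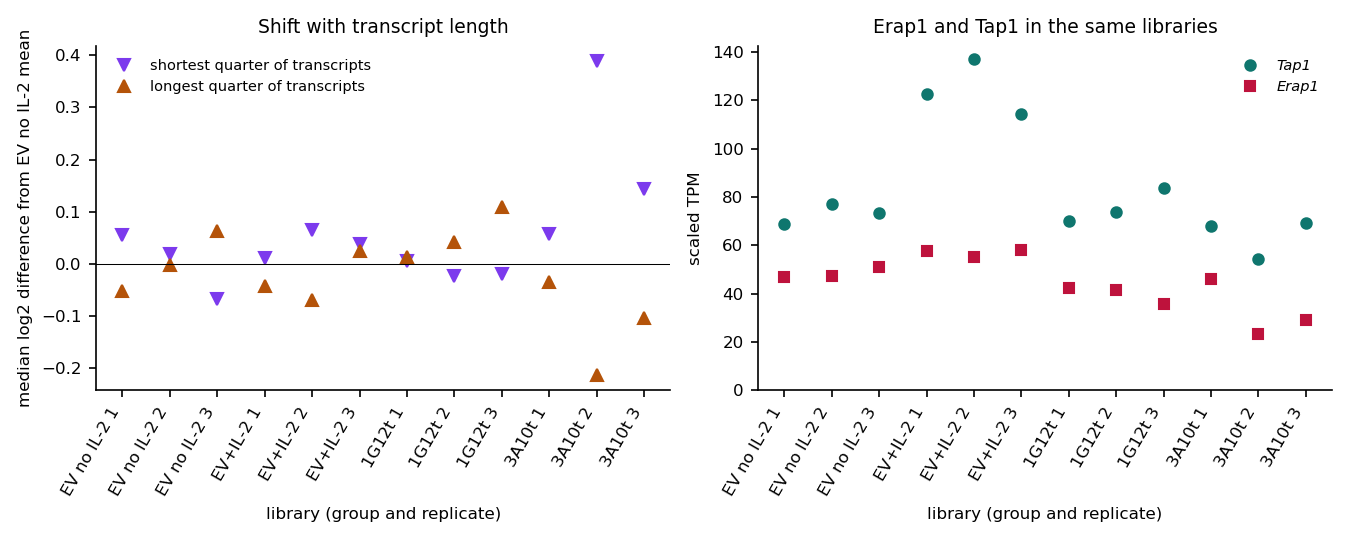
Left, median log2 difference of each library from the EV no IL-2 mean in the shortest and longest 25% of transcripts, for genes above 0 in every library. Right, scaled TPM of Erap1 and Tap1 in the same libraries; 3A10t replicate 2 has the widest split by length (0.39 and −0.21) and the lowest values of both genes.

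Between the constructs, 3A10t against 1G12t, 0 of 10 genes passed the adjusted threshold, and 1, B2m, had an unadjusted p under 0.05, against 29.7% of all genes. Of all genes tested 1.30% were called higher and 2.96% lower in 3A10t. B2m had a log2 fold change of 0.36 ± 0.0924 (SE) (adjusted p = 0.0510). All its 3A10t libraries lay above 1G12t, which held for 13.7% of all genes. With the replicate number as a block, since it marks a shared sort, B2m passed the threshold (adjusted p = 0.0339), and it was called at the study's threshold, where 5.29% of all genes were called higher. With TPM as deposited, which moves the median of all genes in this comparison to −0.18, its value was 0.17. Over all 23 alternatives the value of B2m ranged from 0.055 to 0.43, with a limma adjusted p up to 0.609. Erap1 (−0.32, adjusted p = 0.278), Nlrc5 (−0.28, 0.219) and Tap1 (−0.25, 0.169) did not pass. Without 3A10t replicate 1 there were 4 calls, B2m (0.43), H2-K1 (0.33) and H2-T23 (0.34) higher and Erap1 (−0.58) lower. The shares of all genes above are from the fit with 12 libraries. For the fit without this library the share is not given, so these 4 calls cannot be set against it.

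Set against EV+IL-2, 7 of the 10 genes fell in 3A10t, 0 rose and 3 (B2m, H2-T23 and Tapbp) did not pass, where 10.3% of all genes were called higher and 13.0% lower. In 1G12t 8 genes fell, 0 rose and 2 (Erap1 and Tapbp) did not pass, where 9.69% were called higher and 10.9% lower. These comparisons share the EV+IL-2 libraries with the one against EV no IL-2 and are no independent view of them. The median log2 fold change of the members was −0.58 in 3A10t and −0.56 in 1G12t, against 0.00 and 0.02 over all genes. Tap2 fell by 1.14 in 3A10t and 1.04 in 1G12t on the log2 scale (adjusted p = 1.30e-05 and 1.62e-05). Nlrc5 fell by 1.16 and 0.88, Tap1 by 0.96 and 0.71 and H2-Q7 by 0.77 and 0.72, each with an adjusted p of 6.86e-03 or less. No library of either construct reached the EV+IL-2 level in these 4 genes. Of all genes tested, 18.03% had every 3A10t library below all EV+IL-2 libraries, and 21.99% every 1G12t library.

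With limma adjusted p-values in parentheses, H2-K1 fell by 0.39 in 3A10t (0.0295) and 0.60 in 1G12t (4.02e-03), and H2-D1 by 0.32 (0.0430) and 0.43 (0.0130). Erap1 fell by 0.83 in 3A10t (0.0106), and in 1G12t its value was −0.51 (0.0827). B2m fell by 0.50 in 1G12t (3.55e-03), and in 3A10t its value was −0.14 (0.2995). In 3A10t, B2m was called lower with TPM as deposited (−0.23, adjusted p = 0.0154), with quantile normalization (−0.53, 4.52e-04) and with the length correction (−0.28, 0.0215, and 0.0159 with the replicate block added). H2-T23 fell by 0.40 in 1G12t (0.0378), a call lost with the replicate block (adjusted p = 0.0535), and in 3A10t its value was −0.17 (0.314). Single libraries decided some of these calls. In 3A10t, H2-K1 was lost without any 1 EV+IL-2 library and without 3A10t replicate 1 or 3 (adjusted p from 0.0534 to 0.0830), and H2-D1 without any 1 library other than EV+IL-2 replicate 3 and 3A10t replicate 2 (0.0545 to 0.131). In 1G12t, H2-D1 was lost without EV+IL-2 replicate 2 (0.0540), H2-T23 without any 1 library other than 1G12t replicate 3 and 3A10t replicates 1 and 2 (0.0507 to 0.129), and Erap1 was gained without 3A10t replicate 1 or 2 (4.55e-03 and 0.0266).

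Other genes of the pathway were read from 8 lists of 68 genes, of which 58 were tested. With IL-2, 16 of them rose, 3 fell and 39 did not pass, where 8.17% of all genes were called higher and 5.13% lower. With the replicate block 14 rose and 4 fell. Among other class I and class I-like heavy chains, 6 of 15 tested rose and 1 fell. H2-T3 rose from 21.95 ± 1.13 to 41.2 ± 2.76 scaled TPM (log2 fold change 0.88, adjusted p = 1.43e-03) and H2-T10 from 26.4 ± 5.12 to 45.7 ± 5.24 (log2 fold change 0.78, adjusted p = 3.15e-03). Cd1d1, whose product presents lipids to NKT cells, fell from 132 ± 6.65 to 72.1 ± 7.46 (log2 fold change −0.87, adjusted p = 1.74e-04). With the replicate block 5 of these 15 rose, without H2-T22 (adjusted p = 0.0545).

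Of 5 subunits of the immunoproteasome and its activator PA28, 3 rose. Psmb8, a catalytic subunit, rose from 838 ± 96.8 to 1604 ± 143 scaled TPM (log2 fold change 0.94, adjusted p = 2.63e-03), and Psmb9, another, from 106 ± 12.7 to 175 ± 8.61 (log2 fold change 0.72, adjusted p = 5.14e-04). Psme2, of PA28, rose from 416 ± 41.5 to 569.8 ± 28.0 (log2 fold change 0.46, adjusted p = 0.0194), a call lost without replicate 3 of EV no IL-2 or replicate 1 or 2 of EV+IL-2 (adjusted p up to 0.0860). Of the 3 constitutive subunits that these replace, 0 passed the adjusted threshold in limma, with 2 at an unadjusted p under 0.05, against 26.3% of all genes. Psmb8 per Psmb5, which it replaces, was 5.32 ± 0.696 (SD, n = 3) in EV no IL-2 cells, 8.57 ± 0.912 in EV+IL-2 cells, 5.58 ± 0.192 in 1G12t and 6.06 ± 0.639 in 3A10t. Psmb9 per Psmb6 was 0.179 ± 0.0120, 0.285 ± 0.0132, 0.187 ± 0.00951 and 0.142 ± 0.0184 in the same order, so that both ratios were highest in EV+IL-2. Psmb10 per Psmb7 was 1.75 ± 0.0639, 1.88 ± 0.0902, 1.62 ± 0.119 and 2.10 ± 0.347, highest on average in 3A10t, where its values (1.76 to 2.45) spanned those of EV+IL-2 (1.82 to 1.99).

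**Figure D5:**
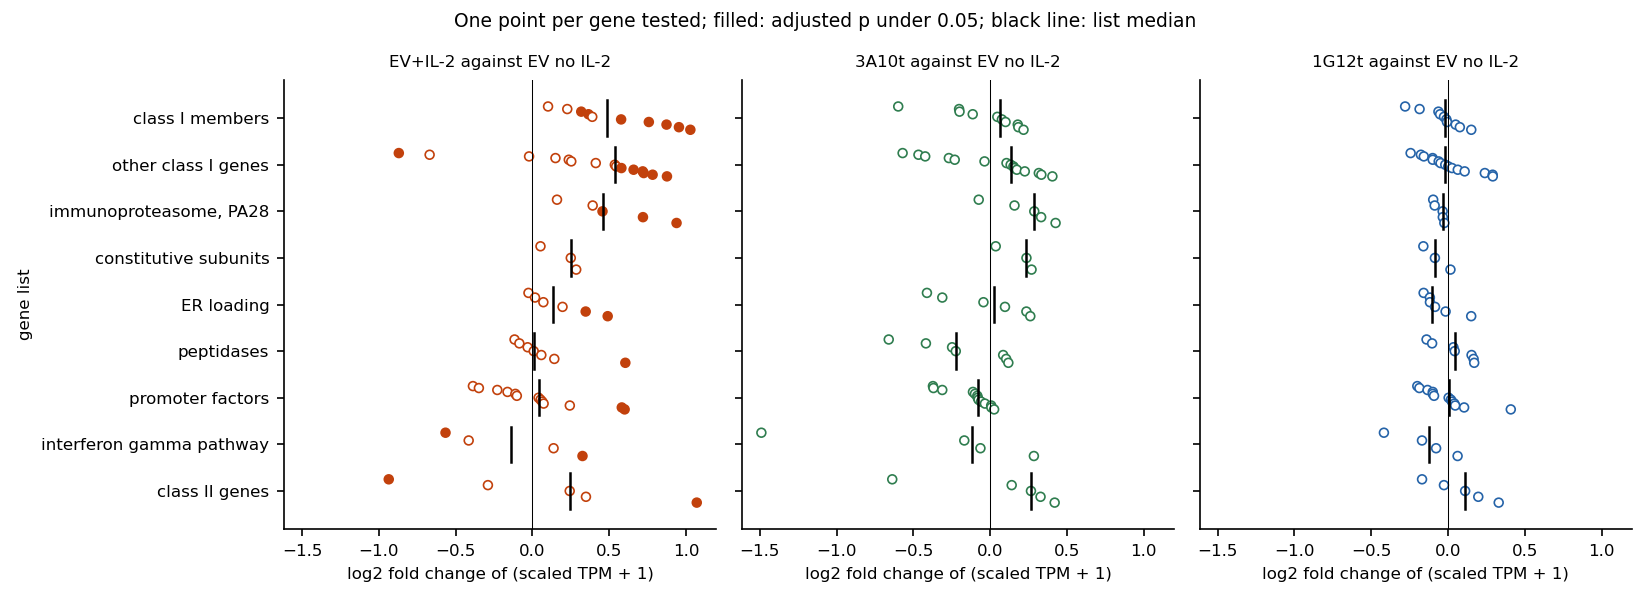
Log2 fold changes on the log2(scaled TPM + 1) scale of each gene tested in the class I members and 8 further lists, with EV no IL-2 as the reference for EV+IL-2, 3A10t and 1G12t cells. Each point is a gene, filled points have an adjusted p under 0.05 and black lines are list medians; filled points occur with IL-2 only in these 3 comparisons, and the open point furthest left in 3A10t is Jak2.

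In what follows, each pair of values in parentheses is a log2 fold change and its limma adjusted p. Of 6 genes that help class I molecules fold and load, 2 rose, the chaperone Calr (0.49, 9.62e-04) and the oxidoreductase Pdia3 (0.35, 0.0144), both of which also serve other glycoproteins. Of 7 cytosolic and endosomal peptidases only Lap3 rose (0.61, 5.30e-03). Among factors that act at class I promoters, Nfkb1 rose (0.60, 0.0267), and Rfxank was called lower with the replicate block (−0.39, 0.0381, against 0.0789 without it). Of the interferon-γ genes 4 were tested; the receptor gene Ifngr1 rose (0.33, 0.0438; 0.0707 with the replicate block) and the kinase gene Jak1 fell (−0.57, 0.0149). Ifng itself was not tested, with a mean of 0.781 scaled TPM in EV no IL-2 cells and 0.693 in EV+IL-2 cells. Of MHC class II genes 5 were tested, and H2-Oa rose (1.07, 5.31e-03) and H2-Ob, whose product pairs with that of H2-Oa, fell (−0.94, 3.51e-03). Both were low, H2-Oa at a mean of 2.67 scaled TPM in EV no IL-2 cells and 6.91 in EV+IL-2 cells, and H2-Ob at 14.3 and 7.07.

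Several of these calls rested on single libraries. Pdia3 was lost without replicate 1 or 3 of EV no IL-2 or replicate 1 or 2 of EV+IL-2 (adjusted p 0.0583 to 0.0737). Nfkb1 and Jak1 were lost without replicate 2 or 3 of EV no IL-2 or replicate 1 or 3 of EV+IL-2 (0.0692 to 0.114 and 0.0563 to 0.0622), and Ifngr1 without any 1 of 8 libraries, all of EV no IL-2 and 1G12t and EV+IL-2 replicates 1 and 2 (0.0508 to 0.150). For 3A10t and for 1G12t set against EV no IL-2, 0 of the 58 genes passed the adjusted threshold in limma, with 19 and 2 at an unadjusted p under 0.05, against 26.0% and 7.04% of all genes. With the replicate block Jak2 was called lower in 3A10t (log2 fold change −1.49, adjusted p = 2.44e-03, against 0.0855 without it). Against EV+IL-2, 3 of the 58 genes were called higher and 19 lower in 3A10t, where 10.3% and 13.0% of all genes were. In 1G12t 3 were called higher and 19 lower, where 9.69% and 10.9% of all genes were. With the replicate block these counts were 4 and 19 in 3A10t, with Canx lost and Jak2 and Rfxank gained, and 4 and 18 in 1G12t, with H2-Q2 and H2-T22 lost and Psmb7 and Jak1 gained.

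Over the 12 libraries the members did not all move alike. Described by Pearson's r between the log2 level of a gene and the mean of the standardised levels of the other 9, Tap2 was closest at 0.947, followed by H2-D1 at 0.896, H2-K1 at 0.885, Nlrc5 at 0.875, H2-Q7 at 0.874 and Tap1 at 0.835. H2-T23 was at 0.726, B2m at 0.716, Erap1 at 0.393 and Tapbp at 0.330. Of 10032 other genes that averaged 5 TPM or more, the pattern most like the mean of the members was that of Gm12250 (r = 0.986), D16Ertd472e (0.979), Xbp1 (0.978), Lta (0.975) and Ada (0.974). Lta, for lymphotoxin α, averaged 143 scaled TPM in EV no IL-2 cells, 522 in EV+IL-2 cells, 143 in 1G12t and 185 in 3A10t, and Gm12250 19.1, 41.0, 15.5 and 18.9. These correlations rest on the same 12 libraries, of which the 3 with IL-2 stand apart, and carry no p.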

How the data were processed

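Each of the 12 RNA libraries of mouse Tregs was put in its group by its label. The deposited values are TPM, estimated by the authors with RSEM 1.3.0 from reads trimmed with cutadapt 1.18 and aligned with STAR 2.5.3 to mm10 (GRCm38), versions as in the submitters' processing notes. TPM sum to the same total in each library and keep no depth, so that the SD over 3 libraries is the error given. The authors' counts and DESeq2 results were not used here. TPM were divided by median-of-ratios factors, and genes averaging 1 TPM or more were tested on log2(scaled TPM + 1), which understates the change of low genes, with limma 3.58.1 in R 4.3.3 (trend, 12 libraries in 1 fit, no block, Benjamini-Hochberg adjustment over all genes). In each fit that left out a library, factors and filter were recomputed. Positions, overlaps and transcript lengths come from GENCODE M21 on GRCm38. The code was tested on simulated data.

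Replicate numbers mark a shared sort by the labels and were used as a block in an alternative. Among same-numbered libraries of different groups (18 pairs), deviations from the group means correlated at a mean of 0.041, from −0.11 to 0.15, with 3 over 0.1. The blocked value is given beside a result where it changed a call or a count in the text.

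The members and lists were chosen with earlier results of these data known. All 10 members are named. From each other list at most 3 genes are named, those with the largest change among genes called against EV no IL-2 with no overlap of libraries, and members of a list given as counts of 5 or fewer or as open points were named after their values were seen. The symbols H2-Q8, H2-Q9 and H2-T9 were not found in the table. No column was left out. A gene of the other lists that is counted in the totals is not reported here by itself.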

Additional observations from a re-analysis of the deposited data

How the results depend on the processing

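The 6 counts of class I genes called were computed under 24 alternatives each, 23 other fits and the study's threshold. Over the 23 fits, H2-K1, H2-Q7, Tap1, Tap2 and Nlrc5 kept their call as higher with IL-2, and Tap1, Tap2, Nlrc5 and H2-Q7 theirs as lower in both constructs against EV+IL-2. B2m and H2-D1, called with IL-2, lost the call in 12 and 10 of the 23. Leaving out 1 library at a time gave 5 to 8 members called in EV+IL-2 against EV no IL-2, 0 to 2 in 3A10t and 0 to 0 in 1G12t against EV no IL-2, 0 to 4 in 3A10t against 1G12t, and 5 to 7 in 3A10t and 6 to 9 in 1G12t against EV+IL-2. The upper values of 2 and 4 came without 3A10t replicate 1. The shares of all genes called in the alternative fits are not given here, so these counts describe the members alone. In 3A10t against EV+IL-2, 4 members were called with only the 6 libraries compared, a fit with fewer samples. In 3A10t against 1G12t, 1 member was called with a mean TPM of at least 5 (B2m), with TPM as deposited (Nlrc5, lower), with the replicate block (B2m) and at the study's threshold (B2m), and in 3A10t against EV no IL-2 1 at the study's threshold (Erap1); the cause was not tested. The block changed no other member's call than those given above, B2m in 3A10t against 1G12t and H2-T23 in 1G12t against EV+IL-2. Signs turned for values near 0. Tap2 in 3A10t against EV no IL-2 was 0.0091 with the length correction, with or without the replicate block. Tap2 in 1G12t was 0.0326 with TPM as deposited, 0.0540 with quantile normalization and 0.0032 with the length correction, with or without the block, and −0.0403 to 0.0310 with 1 library left out. H2-Q7 in 1G12t was −0.0154 to 0.259 with 1 library left out. H2-T23 in 1G12t against EV+IL-2 also lost its call with TPM as deposited, quantile normalization and the length correction (adjusted p 0.0501 to 0.103), and Erap1 there passed with the length correction (0.0266) and with the 6 libraries alone (0.0104). With the 6 libraries alone, H2-T23 and Erap1 also passed with IL-2 (0.0124 and 0.0219). With TPM as deposited the summed heavy chains of 1G12t averaged 8601 TPM, against 8027 when scaled, and those of 3A10t 8305 against 8916. Depth is unknown, so no counting error can be given.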
